A study of Homo sapiens with 8 samples.

Results

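The genes described here are 33 of the 19970 protein-coding genes of the RefSeq gene table on chromosomes 1 to 22 and X: 19 cytosolic aminoacyl-tRNA synthetase genes and 14 other genes of the ATF4 pathway. They were taken by name from a list and placed by their RefSeq positions on the hg38 build. All 33 were found. Of the 14 other members, 6 encode stress regulators (ATF4, ATF5, DDIT3, PPP1R15A, TRIB3, CHAC1), 6 encode enzymes of amino acid or one-carbon metabolism (ASNS, PHGDH, PSAT1, PSPH, SHMT2, MTHFD2) and 2 encode the subunits of an amino acid transporter (SLC3A2, SLC7A5). A peak counted for a gene where at least 1 bp of it lay in the annotated gene widened by 1 kb on each side.

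Aminoacyl-tRNA synthetases join each amino acid to its tRNA and so supply protein synthesis. When charged tRNA runs short, the kinase GCN2 phosphorylates eIF2α, most translation slows, and translation of the transcription factor ATF4 increases. ATF4 with its partners then raises the transcription of synthetases, amino acid transporters, and enzymes of asparagine, serine and one-carbon metabolism. Many of these genes carry a CEBP-ATF response element, a composite site for ATF4 and a C/EBP factor.

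Opened DNA was mapped by KAS-seq, in which N3-kethoxal reacts with guanines in single-stranded DNA inside living cells and the labelled fragments are enriched and sequenced. The cells were HEK293T, an established line derived from human embryonic kidney. One group was kept in medium with 0.5 mM vitamin C for 10 min before labelling with 5 mM N3-kethoxal for 10 min, and the control group was labelled in the same way without vitamin C, with 2 labelled libraries in each group. The labels do not say whether replicates came from separate cultures, so p-values measure only the spread between libraries, which may be technical. The signal comes from a population, so fewer cells with an opened site and less opening per cell cannot be told apart.

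The 2 vitamin C lists held 9816 and 9896 peaks and the 2 control lists 30351 and 24111, and fewer genes held a peak after vitamin C over the whole genome. The depth solved from the deposited peak statistics was 1.22 and 0.871 labelled fragments per position in the vitamin C libraries, and 0.817 and 0.849 in the controls. Of 22 marker genes of blood, liver, muscle, fibroblasts, lung, neurons and glia, 1 and 0 held a peak in the vitamin C libraries, against 3 and 1 in the controls. Among the kidney development genes, EYA1 held peaks in both controls, and PAX2 and LHX1 held none in any library.

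The CEBP-ATF response element was searched for as the letters TGATGNAA, on both strands, in the RefSeq promoter sequences of GRCh38.p14, which run from 250 bases before a listed start to 50 after it. The table held 28 of the 33 members (LARS1, VARS1, YARS1, PSPH and SHMT2 were not in it). The letters were found at 10 of these 28 genes (35.7%) and at 571 of 15812 protein-coding genes with a promoter sequence (3.61%). They stood at 7 of 16 synthetases and 3 of 12 other members. The stricter TGATGCAA, which is contained in the wider search, was found at 7 of the 28 members and at 0.904% of the protein-coding genes. The 30 bases around each match are shown because they are the shared element through which ATF4 is known to act. They are written 5′ to 3′ on the gene's strand with the motif in capitals, so that TTGCATCA is TGATGCAA on the opposite strand.
AARS1 (chr16:70289675-70289704, minus strand): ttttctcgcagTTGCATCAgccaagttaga
CARS1 (chr11:3057407-3057436, minus strand): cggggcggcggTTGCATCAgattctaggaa
GARS1 (chr7:30594834-30594863, plus strand): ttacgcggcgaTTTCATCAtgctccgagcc
IARS1 (chr9:92293692-92293721, minus strand): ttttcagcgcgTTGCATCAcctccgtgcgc
MARS1 (chr12:57488053-57488082, plus strand): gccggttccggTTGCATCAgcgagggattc
NARS1 (chr18:57621804-57621833, minus strand): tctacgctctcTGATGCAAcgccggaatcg
TARS1 (chr5:33440956-33440985, plus strand): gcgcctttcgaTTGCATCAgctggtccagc
CHAC1 (chr15:40953251-40953280, plus strand): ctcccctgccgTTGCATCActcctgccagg
ASNS (chr7:97872458-97872487, minus strand): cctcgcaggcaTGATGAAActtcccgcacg
SLC3A2 (chr11:62881719-62881748, plus strand): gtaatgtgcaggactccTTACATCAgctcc
Positions are counted from the nearest listed start, which is a later one than the first at GARS1 (30594878), TARS1 (33440965) and SLC3A2 (62881699). The match lay at base -187 at AARS1, at -33 at GARS1, at -13 at IARS1, at -68 at ASNS and at -209 at CHAC1. At the other 5 genes its first base lay between -4 and +38. A peak covered the match at SLC3A2, in all 4 libraries, and at none of the other 9 genes in any library. A match is a description of the sequence and does not show that a factor was bound there.

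Most members held opened DNA in the controls. Peaks in both controls were found at 28 of the 33 members (16 of 19 synthetases and 12 of 14 others), against 35.3% of all protein-coding genes. By library, 16 and 20 members held a peak in the vitamin C libraries and 29 and 28 in the controls. The same shares over all protein-coding genes were 23.0% and 23.0% in the vitamin C libraries, and 43.2% and 39.0% in the controls. The mean was 18 ± 2.83 members after vitamin C and 28.5 ± 0.707 in the controls (SD, n = 2 each), and the groups did not overlap. With 2 libraries against 2, the smallest p an exact two-sided permutation test can give is 0.333. When each list was shortened to its 9816 peaks of lowest q, the difference in the number of members was 0.5 in favour of vitamin C, so its direction depended on the number of peaks called.

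Fewer bases lay under peaks at nearly every member after vitamin C. Peaks at the 33 genes covered 21637 and 25437 bases in the vitamin C libraries and 88253 and 69365 bases in the controls, a log2 ratio of -1.74. Over all protein-coding genes the same ratio was -1.61. Of the 28 members with a peak in both controls, 26 had fewer covered bases in both vitamin C libraries than in both controls, against 90.2% of all such genes. The exceptions were ATF5 and PSPH, whose groups overlapped (exact two-sided permutation p = 0.667 for each, and 0.333 for each of the 26). None had more covered bases in both vitamin C libraries, against 0.0426% of all such genes. The members' log2 ratio was -0.74 when the lists were cut to the same length.

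A smaller share of the covered bases remained at the synthetases than at the other members. The 19 synthetases had 10223 and 10492 covered bases after vitamin C, against 51838 and 37227 in the controls. That left 23.3% of the control mean. The 14 other members had 11414 and 14945 covered bases after vitamin C, against 36415 and 32138 in the controls, or 38.5%. All protein-coding genes together kept 32.7%. A few genes carried much of both sums: without IARS1, MARS1 and YARS1 the synthetases kept 17.7%, and without ATF4 and SLC3A2 the other members kept 24.9%. With lists of equal length the order turned, to 62.8% at the synthetases and 58.0% at the other members, so it depended on the number of peaks called. The median gene kept 19.5% among the synthetases and 43.1% among the other members, against 24.4% among all genes with a peak in both controls. Among the other members the stress regulators kept 63.6%, the transporter subunits 48.4% and the metabolic enzymes 21.4%. Single genes weighed heavily here too. ATF4 held a mean of 2790 of the stress regulators' 4520 bases after vitamin C, and PSAT1 8006 of the enzymes' 16633 control bases. All transporter bases after vitamin C were those of SLC3A2. The difference between the 2 sets of members was not tested, since the members were chosen with earlier results known.

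**Figure D1:**
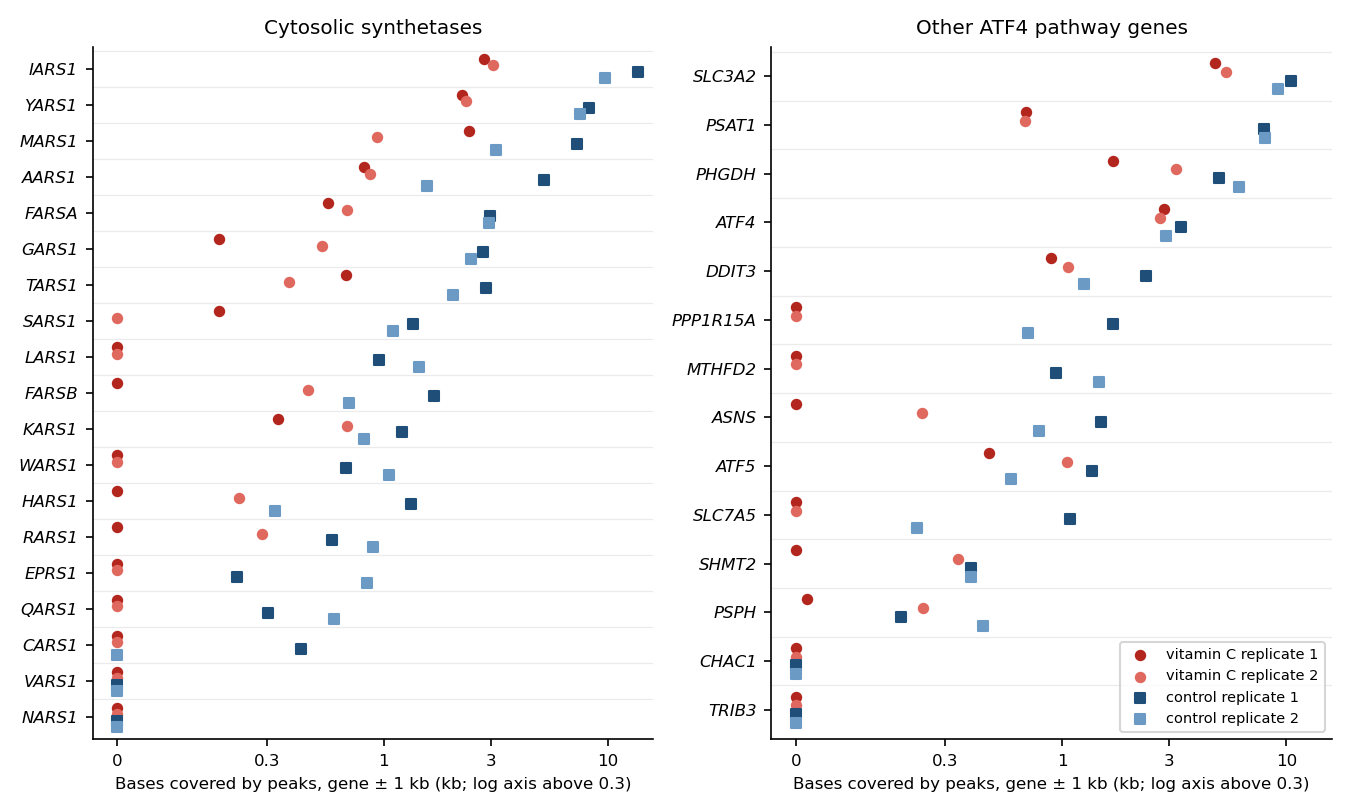
Bases covered by peaks in each gene widened by 1 kb (kb, log axis above 0.3 kb), for each of the 2 vitamin C and 2 control libraries; each point is 1 library, and genes are ordered by control mean. Vitamin C points lie left of both control points at 26 of the 28 genes with a peak in both controls, and the gap is narrow at ATF4 and wide at PSAT1.

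At the level of whole genes, 7 of the 28 members were lost, meaning that a peak was present in both controls and in neither vitamin C library. Over all genes with a peak in both controls the lost share was 26.9%, close to the 25% of the members. A further 6 members kept a peak in 1 vitamin C library (background 23.4%) and 15 kept one in both (background 49.7%). No member was gained (background 0.0472%). Among the synthetases 4 of 16 were lost, 4 were in 1 vitamin C library and 8 were kept. Among the other members 3 of 12 were lost, 2 were in 1 vitamin C library and 7 were kept. CARS1, for cysteine, had a single peak of 425 bp in control replicate 1. NARS1 (asparagine), VARS1 (valine), the pseudokinase gene TRIB3 and the glutathione-degrading enzyme gene CHAC1 had no peak in any library.

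The 4 lost synthetases had between 1 and 4 peaks in each control library. EPRS1 (chr1:219968600-220046505), which encodes the enzyme that charges both glutamate and proline tRNAs, had 0 covered bases in both vitamin C libraries and 240 and 845 in the controls. Its shared control region lay just beyond the 3′ end of the gene, with summits at 25.7 and 36.5 times the mean fragment number of the genome (called height from here on). This was the highest of the lost synthetase regions, but height takes no account of the local background. The deposited folds over background of its peaks were 5.15 and 4.76, at percentiles 31.1 and 19.9 of the control lists.

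LARS1 (chr5:146113034-146182650), the leucine enzyme, had 0 covered bases in both vitamin C libraries and 948 and 1434 in the controls, in 4 peaks each. WARS1 (chr14:100333790-100376327), the tryptophan enzyme, had 0 after vitamin C and 681 and 1051 in the controls. QARS1 (chr3:49095932-49104757), the glutamine enzyme, had 0 after vitamin C and 304 and 601 in the controls. The QARS1 control peaks lay at different places in the 2 libraries, so no region of it was found in both. Part of the WARS1 start region also lay within 1 kb of WDR25.

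Of the 3 other lost members, PPP1R15A (chr19:48872421-48876058) encodes GADD34, which brings protein phosphatase 1 to eIF2α and ends the translational block. It had 0 covered bases after vitamin C and 1690 and 701 in the controls, with regions at the start and at the 3′ end in both controls. MTHFD2 (chr2:74198615-74217565), a mitochondrial enzyme of the folate cycle, had 0 after vitamin C and 931 and 1457 in the controls. SLC7A5 (chr16:87830023-87869507), the catalytic subunit LAT1 of a transporter of large neutral amino acids, had 0 after vitamin C and 1079 and 243 in the controls. By the definition of lost, all 7 genes must stay lost when any single library is left out, so that was no test of them. With lists of equal length only MTHFD2 among them was lost.

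The 6 members with a peak in 1 vitamin C library had 5 of those peaks in replicate 2. FARSB (chr2:222566899-222656092), the beta subunit of the phenylalanine enzyme, had 0 and 460 covered bases after vitamin C and 1669 and 697 in the controls. HARS1 (chr5:140673905-140691370), the histidine enzyme, had 0 and 245 after vitamin C and 1330 and 327 in the controls. Its shared region lay at the start, 51 to 378 bases into the gene, within 1 kb of HARS2, the neighbouring gene for the mitochondrial enzyme. At both genes the peak of vitamin C replicate 2 overlapped the control region at the start.

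RARS1 (chr5:168486471-168519301), the arginine enzyme, had 0 and 290 covered bases after vitamin C and 585 and 897 in the controls, at places that no 2 libraries shared. SARS1 (chr1:109213893-109238182), the serine enzyme, was the reverse case, with 205 and 0 after vitamin C and 1358 and 1105 in the controls. Its vitamin C peak, of height 13.1, lay beyond the 3′ end, 24917 bases from the start. Control replicate 1 had a peak at the same place, of height 22, and control replicate 2 had none there. Both shared control regions of SARS1 lay in the first 5136 bases and were met in neither vitamin C library.

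ASNS (chr7:97851677-97928441), asparagine synthetase, had 0 and 253 covered bases after vitamin C and 1489 and 784 in the controls. SHMT2 (chr12:57229711-57234935), the mitochondrial enzyme that moves a carbon from serine to folate, had 0 and 343 after vitamin C and 392 and 390 in the controls. At SHMT2 the peaks of the 3 libraries lay over nearly the same bases. Their heights were 18.4 in vitamin C replicate 2, against 30.6 and 21.2 in the controls. Without vitamin C replicate 2 the number of lost members was 12, since these 2 genes, FARSB, HARS1 and RARS1 were then lost as well.

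The strongest kept synthetases were MARS1, IARS1 and YARS1, ranked by the percentile of their best peak's fold within each control list, with means of 97.7, 96.8 and 91.7. The deposited fold is the authors' value for each peak. MARS1 (chr12:57488068-57516652), the methionine enzyme, had 5 peaks and 1 peak after vitamin C, against 10 and 5 in the controls. Its covered bases were 2395 and 934 after vitamin C and 7314 and 3169 in the controls (log2 ratio -1.65). One region 8682 to 10406 bases into the gene remained in all 4 libraries and was the highest of any synthetase, with heights of 66.1 and 62.0 after vitamin C and 90.6 and 85.9 in the controls. The region at the MARS1 start, with control heights of 17.1 and 28.3, was met in neither vitamin C library. That region also lay within 1 kb of ARHGAP9.

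IARS1 (chr9:92210207-92293697), the isoleucine enzyme, had the most covered bases of all members in both controls. It held 7 and 8 peaks after vitamin C, against 29 and 17 in the controls. The covered bases were 2795 and 3076 after vitamin C and 13680 and 9784 in the controls (log2 ratio -2.00). Of its 15 regions shared by both controls, 5 were met in both vitamin C libraries and 10 in neither. The 5 were a region upstream of the start, between bases -2224 and -282, 1 region 24602 to 25408 bases into the gene, and 3 between 55115 and 64851 bases. Regions were built from control peaks and so leave out sites found only after vitamin C. Both vitamin C libraries had a peak beginning 48354 and 48356 bases into the gene (heights 13.1 and 12.6), where neither control had one.

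YARS1 (chr1:32775239-32817358), the tyrosine enzyme, had 5 and 6 peaks after vitamin C and 23 and 17 in the controls. Its covered bases were 2227 and 2338 after vitamin C and 8280 and 7496 in the controls (log2 ratio -1.79). Of its 13 shared control regions, 3 were met in both vitamin C libraries, another 3 in a single one and 7 in neither. Regions near both ends of YARS1 also lay within 1 kb of the neighbours NHSL3 and S100PBP, and the strand of YARS1 was not given by the tables used.

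The other 5 kept synthetases retained 1 or 2 peaks per vitamin C library. They were AARS1 (alanine), FARSA (the alpha subunit of the phenylalanine enzyme), GARS1 (glycine), KARS1 (lysine) and TARS1 (threonine). Their covered bases after vitamin C ranged between 14.1% (GARS1) and 50.6% (KARS1) of the control mean. At FARSA the start and body regions shared by both controls were met in neither vitamin C library. Both shared regions at the 3′ end were met in both. The 1 region of any member with a higher summit in both vitamin C libraries was one of these, with heights of 22.9 and 23.0 after vitamin C and 18.4 and 12.9 in the controls. The other FARSA end region overlapped MIR5695 and lay within 1 kb of SYCE2. In vitamin C replicate 2 it was met only by a peak more than 1 kb past the gene. A FARSA body peak of vitamin C replicate 2 (height 18.4) overlapped one of control replicate 1 (17.1) that control replicate 2 lacked. The AARS1 start region lay within 1 kb of DDX19B.

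**Figure D2:**
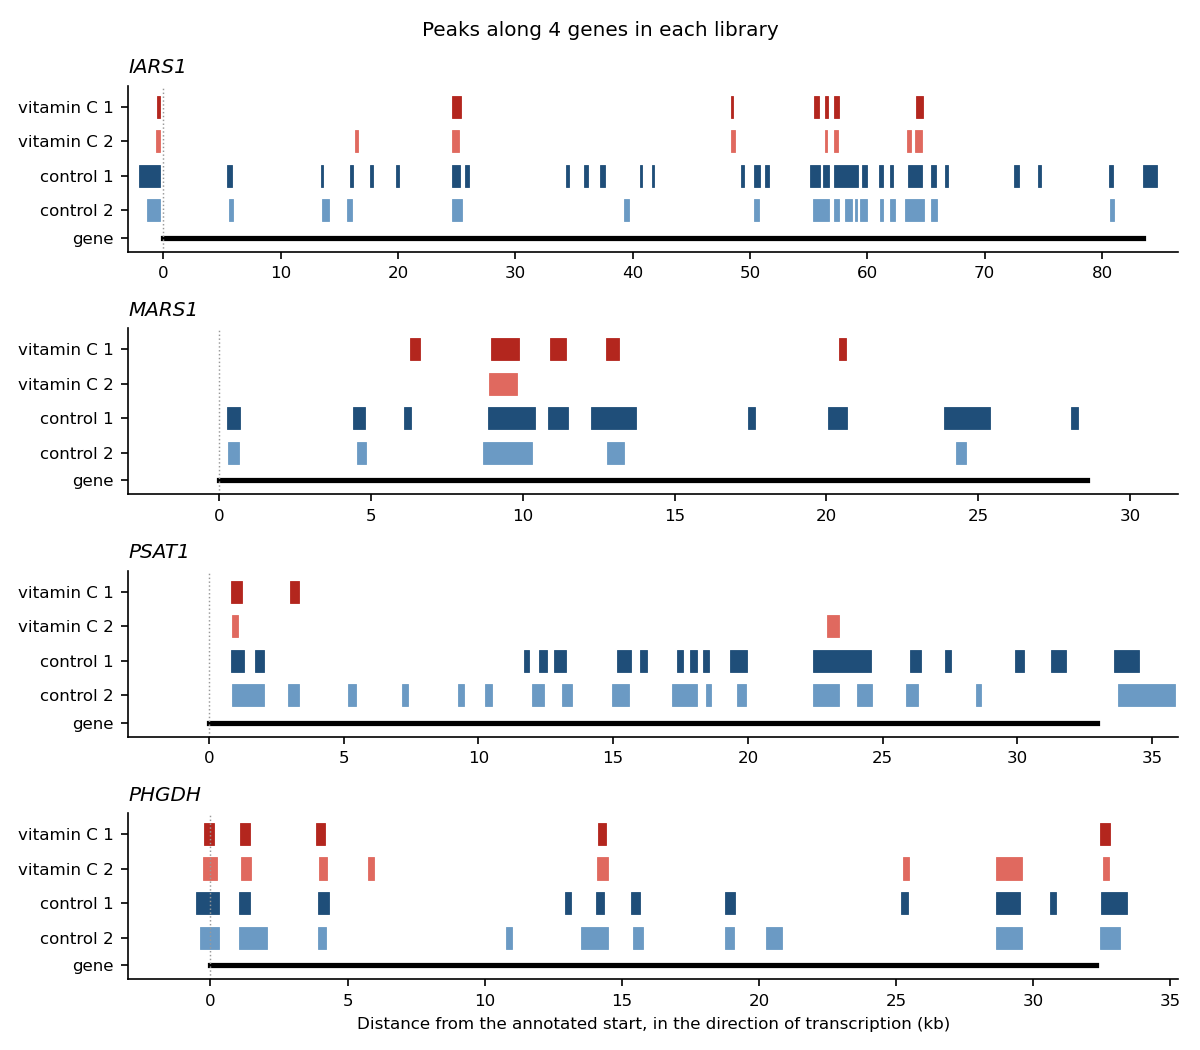
Peaks along IARS1, MARS1, PSAT1 and PHGDH in each library (coloured blocks), against the distance from the annotated start in the direction of transcription (kb); the black bar is the gene. Control peaks are spread along the bodies of IARS1 and PSAT1. They cover 16% and 11.4% of the IARS1 window and 22.8% and 23% of the PSAT1 window. The vitamin C libraries hold 7 and 8 peaks at IARS1 and 2 each at PSAT1. At PHGDH blocks at both ends remain in all 4 libraries.

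The strongest kept members outside the synthetases were SLC3A2, ATF4 and PHGDH, with mean control percentiles of 99.7, 99 and 96.6. ATF4 (chr22:39520559-39522686), the transcription factor of the pathway, had 2 peaks in every library. The covered bases were 2844 and 2735 after vitamin C and 3380 and 2891 in the controls, 89% of the control mean (log2 ratio -0.17). The longer of the 2 peaks had its summit 1962 bases after the start in vitamin C replicate 2, at a height of 45.9, against 89.4 and 87.1 at 1980 and 1984 bases in the controls. In vitamin C replicate 1 its summit lay outside the window, 5158 bases after the start. One of the 2 control regions ran from 332 to 7637 bases after the start and so reached past ATF4 into RPS19BP1. The ATF4 share therefore depended on the overlap asked for. It was 49.9% with the summit required inside the window and 73.2% with the gene widened by 5 kb, while with at least 50% of a peak's length inside, ATF4 had a mean of 1072 covered bases more after vitamin C.

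SLC3A2 (chr11:62856109-62888860), the heavy chain that carries SLC7A5 to the cell surface, had 8 and 10 peaks after vitamin C and 10 and 11 in the controls. Its covered bases were 4822 and 5371 after vitamin C and 10528 and 9221 in the controls (log2 ratio -0.95). Of its 8 shared control regions, 6 were met in both vitamin C libraries. The highest, with heights of 66.1 and 70.0 after vitamin C and 105 and 96.5 in the controls, reached upstream to base -6895 from the start, over SNHG1 and the snoRNA genes SNORD22 and SNORD25 to SNORD31. It therefore cannot be assigned to SLC3A2 alone. The region at the 3′ end had heights of 54.7 and 64.3 after vitamin C and 88.2 and 80.1 in the controls. It ran from 62888746 to 62891843, so nearly all of it lay past the end of the gene at 62888860. Its summit lay more than 1 kb past the gene in every library but control replicate 1. SLC3A2 was kept while its partner SLC7A5 was lost.

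The 3 enzymes of serine synthesis from glycolysis were all kept, to different extents. PHGDH (chr1:119711934-119744215), which catalyses the first step, had 5 and 8 peaks after vitamin C and 11 and 10 in the controls. The covered bases were 1683 and 3201 after vitamin C and 5029 and 6133 in the controls (log2 ratio -1.19). Its start, 3 body regions and 3′ end were met in both vitamin C libraries.

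PSAT1 (chr9:78297125-78330093), the aminotransferase of the next step, kept only 8.56% of its covered bases. It had 2 and 2 peaks after vitamin C and 17 and 17 in the controls. Its covered bases were 689 and 682 after vitamin C and 7973 and 8038 in the controls, a log2 ratio of -3.55. The means were 686 ± 4.95 bases after vitamin C and 8006 ± 46.0 in the controls (SD, n = 2 each), so the spread within either group was small beside the difference. The close vitamin C sums came in part from different places. Beside the start peak, replicate 1 had 307 bp beginning 3021 bases after the start, and replicate 2 had 459 bp beginning 22934 bases after it. The region 826 to 2055 bases after the start was met in both vitamin C libraries, with heights of 22.0 and 16.1, against 28.2 and 31.8 in the controls. A region at the 3′ end, reaching 35904 bases from the start, was met in both vitamin C libraries as well (heights 13.9 and 14.9, against 23.3 and 16.5 in the controls), by peaks more than 1 kb past the gene. Of its 8 body regions, 7 were met in neither vitamin C library.

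PSPH, the phosphatase that completes the pathway, had 22 and 254 covered bases after vitamin C and 210 and 440 in the controls, so the groups overlapped. In vitamin C replicate 1 its call rested on 22 bases at the edge of the window.

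The remaining kept stress regulators were DDIT3 and ATF5. DDIT3 encodes CHOP, a C/EBP-related factor of prolonged stress. It had 886 and 1057 covered bases after vitamin C and 2355 and 1250 in the controls. Its start region overlapped MIR616 and lay within 1 kb of MBD6 and LOC128125814. ATF5, a factor related to ATF4, had 468 and 1049 covered bases after vitamin C and 1359 and 590 in the controls. Its start region lay within 1 kb of IL4I1 and NUP62. The ATF5 groups overlapped, and its direction turned when vitamin C replicate 1 or control replicate 1 was left out.

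The 250 bases before the first listed start are shown for 4 of the 7 members whose peaks reached into them in any library, the lost PPP1R15A and the 3 strongest kept members outside the synthetases, since opened DNA there can be read against the sequence. The strand is that of the gene, and capitals mark bases under a peak in all 4 libraries at ATF4, PHGDH and SLC3A2, and under a peak in both controls at PPP1R15A.
ATF4 (chr22:39520309-39520558, plus strand): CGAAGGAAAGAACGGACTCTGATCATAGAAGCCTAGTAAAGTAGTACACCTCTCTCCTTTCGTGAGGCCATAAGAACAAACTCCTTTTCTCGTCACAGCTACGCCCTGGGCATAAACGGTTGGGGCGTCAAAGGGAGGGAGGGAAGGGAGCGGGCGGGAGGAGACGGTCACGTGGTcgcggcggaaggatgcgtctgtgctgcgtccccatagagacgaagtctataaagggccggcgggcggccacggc
PHGDH (chr1:119711684-119711933, plus strand): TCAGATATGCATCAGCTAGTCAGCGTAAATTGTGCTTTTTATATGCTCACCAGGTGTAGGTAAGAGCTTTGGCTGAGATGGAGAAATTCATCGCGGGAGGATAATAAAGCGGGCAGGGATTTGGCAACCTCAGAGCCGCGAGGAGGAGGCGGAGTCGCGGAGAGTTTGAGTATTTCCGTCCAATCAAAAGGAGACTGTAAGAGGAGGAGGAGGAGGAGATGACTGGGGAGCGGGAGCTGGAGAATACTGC
SLC3A2 (chr11:62855859-62856108, plus strand): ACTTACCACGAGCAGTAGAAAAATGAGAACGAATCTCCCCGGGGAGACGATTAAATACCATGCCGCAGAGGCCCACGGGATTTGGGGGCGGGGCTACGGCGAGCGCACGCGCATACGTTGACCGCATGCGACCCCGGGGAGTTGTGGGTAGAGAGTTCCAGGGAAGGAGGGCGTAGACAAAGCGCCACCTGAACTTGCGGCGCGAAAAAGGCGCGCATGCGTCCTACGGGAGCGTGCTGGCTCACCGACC
PPP1R15A (chr19:48872171-48872420, plus strand): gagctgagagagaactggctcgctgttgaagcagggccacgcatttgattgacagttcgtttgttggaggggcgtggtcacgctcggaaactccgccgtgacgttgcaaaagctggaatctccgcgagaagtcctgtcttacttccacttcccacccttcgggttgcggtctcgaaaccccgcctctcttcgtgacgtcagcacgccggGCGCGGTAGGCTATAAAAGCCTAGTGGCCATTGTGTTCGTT
Peaks covered all 250 bases at PHGDH and SLC3A2 in every library. At ATF4 they covered 250 and 229 bases after vitamin C and 250 and 176 in the controls. At PPP1R15A they covered 0 in both vitamin C libraries and 41 and 189 in the controls. Among the 28 members with a promoter sequence, 4 and 4 had any of these bases under a peak after vitamin C and 7 and 6 in the controls. Over all protein-coding genes with a listed start the shares were 4.06% and 4.01% after vitamin C and 9.52% and 8.24% in the controls. DDIT3 was the fourth with a peak there in all 4 libraries, and TARS1 had 0 and 0 covered bases after vitamin C and 202 and 250 in the controls.

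The members held 95 regions found in both controls, 57 at synthetases and 38 at the others. After vitamin C, 31 of them were overlapped by a peak in each of the 2 libraries (32.6%, background 32.8%), while 50 had no overlapping peak (52.6%, background 41.9%). At the synthetases 14 of 57 were met in both and 35 in neither (61.4%). At the other members 17 of 38 were met in both and 15 in neither (39.5%). Regions of 1 gene are not independent of each other, and IARS1 with YARS1 held 28 of the 57. Without those genes 18 of 29 synthetase regions (62.1%) were met in neither vitamin C library.

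Member regions at gene starts and 3′ ends were met in both vitamin C libraries more often (12 of 21 and 6 of 12) than regions in gene bodies (10 of 46), and so they were over all protein-coding genes. Within 1 kb of a listed start, 3 of 10 synthetase regions and 9 of 11 regions of the other members were met in both vitamin C libraries. The regions met in neither numbered 5 of 10 and 2 of 11. Over all protein-coding genes with a listed start the shares were 42.2% in both and 34.0% in neither. Inside gene bodies, 5 of 25 synthetase regions and 5 of 21 regions of the other members were met in both (background 25.1%), and 17 of 25 and 12 of 21 in neither (background 48.3%). At the 3′ end 3 of 7 synthetase regions and 3 of 5 others were met in both (background 43.8%), and 4 of 7 and 1 of 5 in neither (background 32.4%). The 9 start regions of the other members lay at ATF4, ATF5, DDIT3, PHGDH, PSAT1 and SLC3A2, and several belonged to the same gene. In the controls the median height was 27.0 over the 11 start regions of the other members and 15.9 over the 10 of the synthetases; the part of this height in the difference was not tested.

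Counted by gene, 17 of the 28 members with a listed start had a start peak in both controls, against 17.0% of all protein-coding genes. Among the 9 such synthetases, FARSA, MARS1, SARS1 and WARS1 lost the start peak, FARSB and HARS1 kept it in 1 vitamin C library, and AARS1, IARS1 and TARS1 kept it in both. Among the 8 such other members, PPP1R15A and MTHFD2 lost it and the other 6 kept it. Over all such genes 32.1% lost the start peak and 43.8% kept it. As a share of all member peaks whose position could be given, start peaks made up 35.0% and 33.3% after vitamin C and 18.1% and 21.1% in the controls. With lists of equal length the share of members with a start peak was the same in both groups (difference 0).

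**Figure D3:**
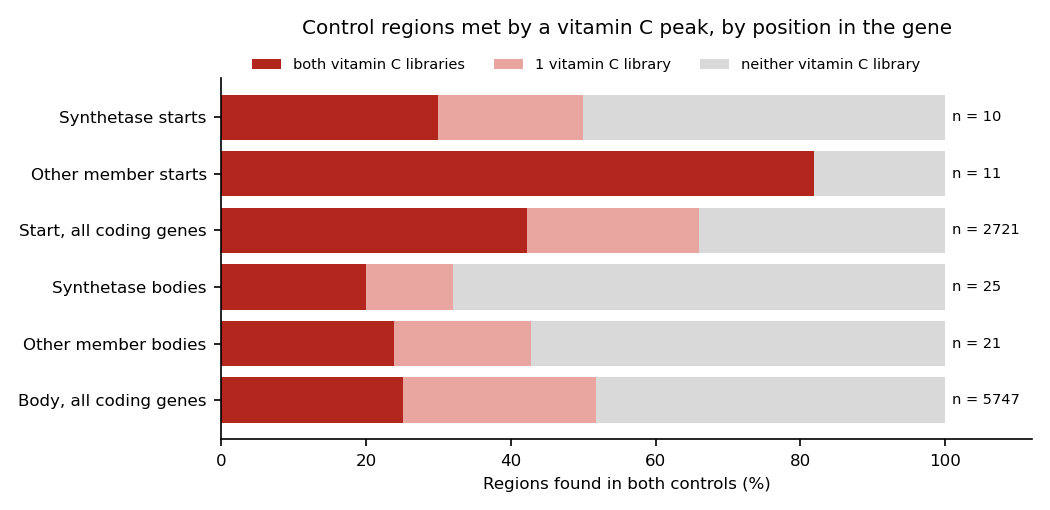
Shares of control regions (%) met by a peak in both, 1 or neither vitamin C library, for regions at gene starts and in gene bodies, with the number of regions beside each bar. At starts the bar of the other members is met in both vitamin C libraries for 9 of 11 regions and that of the synthetases for 3 of 10; in bodies the numbers are 5 of 21 and 5 of 25, beside 25.1% for all coding genes.

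Where a region remained, its summit was usually lower. Of the 31 member regions met in all 4 libraries, 27 had a lower height in both vitamin C libraries than in both controls (background 76.0%), and 1 had a higher height in both (background 0.674%). Median heights were 20.4 and 19.5 after vitamin C and 28.2 and 28.3 in the controls. Regions met in neither vitamin C library had been lower in the controls, with a median height of 15.0, against 28.2 for those met in both. The lowest height at which any peak was called was 8.16 and 8.04 in the vitamin C lists and 7.35 and 7.06 in the control lists.

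**Figure D4:**
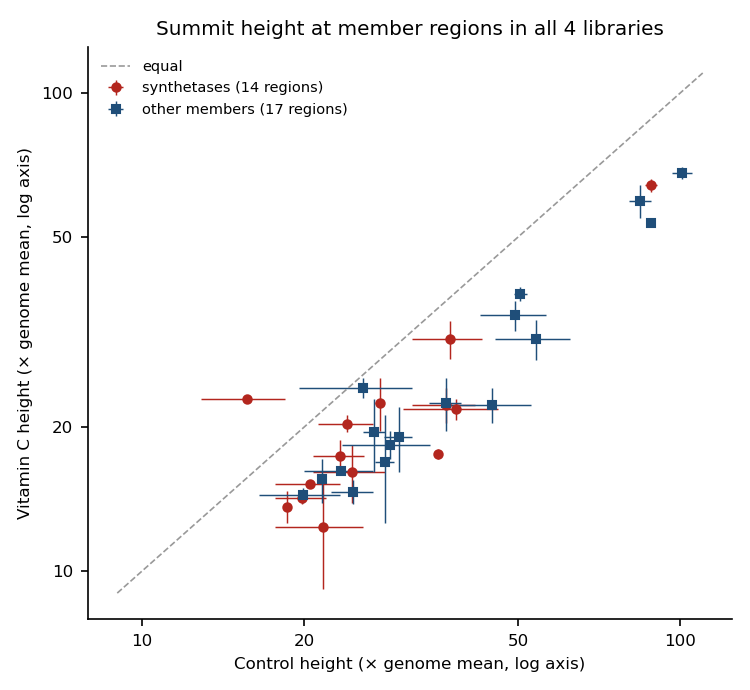
Summit height at the 31 member regions met in all 4 libraries, vitamin C mean against control mean, in multiples of the mean fragment number of the genome (log axes); bars span the 2 libraries of each group and the dashed line marks equal height. All but 1 point, the FARSA 3′ region, lie below the line.

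Related genes outside the list were counted in the same way. Over all protein-coding genes 35.3% had a peak in both controls. Of those, 26.9% were lost, 23.4% were in 1 vitamin C library and 49.7% were kept. The lists are small, and none was tested against these shares. Of the mitochondrial synthetases, which charge tRNAs inside mitochondria, 15 of 17 had a peak in both controls. Of these 5 were lost (LARS2, NARS2, RARS2, TARS2 and YARS2), 2 were in 1 vitamin C library and 8 were kept. The 3 scaffold genes of the multi-synthetase complex were kept, and EEF1E1 was the strongest of them in the controls.

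Upstream of ATF4, 11 of 15 genes had a peak in both controls. Of these 2 were lost (18.2%, background 26.9%) and 7 kept (63.6%, background 49.7%). The lost genes were EIF2AK4, which encodes GCN2, and EIF2B3, a subunit of the eIF2 exchange factor. EIF2AK4 had 0 covered bases after vitamin C and 222 and 219 in the controls. GCN1, the activator of GCN2, was the strongest kept gene, with 2134 and 1307 after vitamin C and 5788 and 4860 in the controls. Among other ATF4 targets 15 of 24 had a peak in both controls, of which 5 were lost (33.3%) and 9 kept (60%). The lost genes were ATF3, SESN2, EIF4EBP1, XPOT and ALDH1L2.

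XPOT, the exporter of tRNA, had the most opened DNA of these 5, with 0 covered bases after vitamin C and 3127 and 2630 in the controls. The glutamine transporter gene SLC1A5 was the strongest kept target. In the remaining one-carbon genes 5 of 7 had a peak in both controls and all 5 were kept (background 49.7%). MAT2A, which makes S-adenosylmethionine, was the strongest, with 3726 and 3402 covered bases after vitamin C and 5255 and 4948 in the controls.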

How the data were processed

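The submitters' processing notes list the build hg38 and the tools MACS2 2.2.7.1, Bowtie2 2.4.5, deepTools, Trim Galore, cutadapt and bcl2fastq 2.19. Their order and settings were not given in the sources used here. For each labelled library a separate peak list was deposited, with positions in bases and, for every peak, the fold over background as a linear ratio, −log10 of p and −log10 of q. These are the authors' values, used only for ranks and thresholds inside each list and for solving depth. The highest q in any list was 0.00999. Input libraries (4) were not analysed here. Samples disagree on the number in the cell line's name, so the titles, all naming HEK293T, were followed.

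Peaks on chromosomes 1 to 22 and X were assigned to genes of the RefSeq table of GRCh38.p14 (the build hg38), widened by 1 kb, with at least 1 bp of overlap. Other sequences held 4.23% to 5.06% of a list's peaks. Covered bases count the part of a peak inside the window. Fragments at each summit and the local background were solved from the deposited fold and p-value with MACS2's formula (tolerance 0.005 in −log10 p), which succeeded for 100% of peaks; vitamin C replicate 1 required a labelled scale of 0.776. Height is the summit's fragments over the mean fragments per position, taken from the lowest backgrounds. Regions are merged control peaks overlapped by a peak in both controls. Starts and strands came from the RefSeq promoter table; a region was placed at the start or 3′ end within 1 kb of it, otherwise in the body.

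The members and lists were chosen with earlier results of these data known, so lists are described by counts beside all protein-coding genes, and no list was tested. All members are accounted for; values per library are given for lost members, members with a peak in 3 libraries, and the 3 kept synthetases and 3 kept other members of highest control percentile. Further values and neighbouring genes were chosen after they were seen, as were the sums without named genes. Promoters are printed for the members this rule selects whose peaks reached into the 250 bases. Some genes that the rule selects from the other lists are not reported here.

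Alternatives were other windows and overlaps, stricter q and fold thresholds, a replicate block, lists of equal length and each library left out in turn; a common p threshold and regions in place of genes were added after seeing the data. Calculations used scipy 1.17.1, pandas 2.3.3 and numpy 2.4.6 under Python 3.11.15, and were tested on simulated lists.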

Additional observations from a re-analysis of the deposited data

How the results depend on the processing

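Results depended most on the number of peaks called. With lists of equal length the difference in members with a peak (vitamin C minus control; -10.5 as reported) was 0.5, that in the share of synthetases was 7.89 percentage points and of other members -7.14, the log2 ratio of covered bases was -0.74, the log2 of synthetase over other covered bases (-0.73 as reported) was 0.11, the start share differed by 0, and 1 member was lost (0 synthetases and 1 other) and 1 gained. The difference in mean covered bases then turned positive at ASNS (126), FARSB (230), GARS1 (166), KARS1 (252), PSPH (138), RARS1 (145) and TARS1 (338). With a fold of at least 6.71, the median of the shortest list, the difference in members was -8, the log2 ratio -1.47, the synthetase share -23.7, the start share -16.1, 4 members were lost (2 synthetases) and 9 kept, and TARS1 turned to 82.5. With genes widened by 5 kb these were -7 and -1.51, with 4 lost (0 other members) and -10.7 for the share of other members; with no widening that share was -35.7 and the synthetase over other log2 value -0.48, which was -0.49 with the summit required inside the window. With −log10 q of at least 5 the synthetase share was -42.1. ATF4 turned to 1072 with 50% of a peak required inside the window. Ranked by q, the median control percentile of the members' best peaks was 75.4 in place of 81.2. Equal lists and stricter thresholds hold fewer peaks by construction; otherwise the cause was not tested.

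By their definitions, the numbers of lost, kept and gained members can only stay equal or rise when a library is left out. Leaving out 1 library gave 7 to 12 lost members, 15 to 20 kept and 0 gained, with 4 to 7 lost synthetases and 3 to 5 lost other members. The difference in members was -12.5 to -8.5 and the log2 ratio -1.91 to -1.56 when 1 library was left out. The share of synthetases then changed by -39.5 to -28.9, of other members by -35.7 to -21.4 and of members with a start peak by -37.5 to -26.8 points, and the synthetase over other log2 value by -0.89 to -0.54. The ATF5 difference lay between -600 and 168 bases, and turned to 74.5 without vitamin C replicate 1 and to 168 without control replicate 1. With the replicate number as a block the differences were -10.5, -1.74, -28.6, -34.2 and, for synthetases over others, -0.70. In this balanced layout a block cannot change a difference of group means, and the calls do not use it. Same-numbered libraries did not deviate together over 9484 genes (r = -0.00). A single correlation with so few libraries cannot show whether same-numbered libraries were prepared together. The part of depth in the calls was not tested, and the region counts were not repeated with lists of equal length.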
